A study of Mus musculus with 16 samples.

Results

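The chemokine system was read here as 60 genes, measured by 61 probe sets, out of 19505 genes on a mouse expression array. They are all the genes whose symbol marks a CC, CXC or CX3C chemokine or a receptor of the CC, CXC, CX3C, XC or atypical kind, with no measured value used in choosing them. They comprise 37 ligands, 18 signalling receptors and 5 atypical receptors. Ccl21b alone had 2 probe sets, whose means were 3.21 and 3.08 on the log2 scale, and the higher of them was used.

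The study profiled cells sorted from the olfactory mucosa of 24 C57BL/6 mice, males and females 7 to 12 weeks old, all carrying the S100a5-tauGFP reporter. The mice were kept for 40 h in chambers with air at 3.1 L/min, and from hour 26 received 10 s pulses of bourgeonal, a floral aldehyde, or of filtered air (vehicle) every 20 min. Cells were sorted by GFP fluorescence, with 3 mice to a library, which gave 16 libraries: 4 titled GFP+ and 4 titled GFP- for each treatment. The mice and libraries correspond to 8 pools, so both gates of 1 pool are assumed to share their mice, and p-values measure the spread between these pools. The labels name no gate other than GFP, and each library is a bulk sample, in which fewer cells of a type and less RNA per cell cannot be told apart.

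The labels contradict each other: in 16 of 16 libraries the gate in the title is the opposite of the gate in the cell type entry. S100a5, the gene the reporter is named for, whose expression in olfactory neurons follows activity, was lower on the side titled GFP+ in 8 of 8 pools, with a mean log2 difference of -1.02 ± 0.25 (SD, n = 8). By an exact test over the 256 sign flips of the pools, two-sided, p was 0.00781, which is the smallest possible value. The data thus go against the titles for this gene. Each library is named by its title only as a label, and which entry gives the true gate was not settled. Omp, which marks mature olfactory sensory neurons, lay between 18.63 and 18.97 in every library, and its gate difference was -0.04 ± 0.10 (SD, n = 8). All values are deposited log2 values, and a gate difference is titled GFP+ minus titled GFP- within a pool. As a guide to background, the 95th percentile of 319 vomeronasal receptor genes was taken in each library. It split by gate, at 4.29 to 4.64 in the libraries titled GFP+ and 4.69 to 4.97 in those titled GFP-. A group whose mean is under 4.97 is called below the guide, which is thus stricter for the side titled GFP+. A ratio with such a group on its dim side is given as a lower bound ("at least").

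Chemokines are small secreted proteins that bind receptors coupled to G proteins and direct the movement of leukocytes. CXC ligands such as Cxcl1 and Cxcl2 act on Cxcr2 and draw neutrophils, Ccl2 and its relatives act on Ccr2 and draw monocytes, and Cxcl12 acts on Cxcr4 and holds immature leukocytes in the bone marrow. Atypical receptors bind or present chemokines without the usual G protein signal. In the olfactory epithelium, leukocytes are resident or pass through, and neurons themselves make some members such as Cx3cl1, which is tethered to the membrane.

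Most members were dim in these libraries. In 23 of the 60 genes (38.3%) at least 1 group mean exceeded the guide, against 62.2% of all genes, and 10 were above it in all 4 groups. The other 37 were below it in every group, with single library values of 2.16 to 5.22. Those above the guide were 15 of 37 ligands, 5 of 18 receptors and 3 of 5 atypical receptors.

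Between gates, more members were called higher than lower on the side titled GFP+ with the deposited scaling, and fewer after median centring. In the vehicle pools 16 of 60 members (26.7%) were higher in the libraries titled GFP+ at an adjusted p under 0.05 (limma, Benjamini-Hochberg over all genes), where 9.95% of all genes were called higher. Lower calls numbered 2 there, against 6.23% of all genes. In the bourgeonal pools 21 members (35.0%) were higher, where 10.2% of all genes were, and 2 (3.33%) were lower, where 7.82% were. Some members, such as Cxcr4, passed the guide only through the libraries titled GFP+, so no count or median of gate differences is given over the members above it. A total of 15 members were called higher under both treatments and 1, Cx3cl1, lower under both, where 8.41% and 3.57% of all genes were. Over all 60 members the median gate difference was 0.01 in the vehicle pools and 0.07 in the bourgeonal pools, and over all genes it was -0.09 and -0.10. The gate groups did not overlap, with the side titled GFP+ higher, for 14 members in the vehicle pools, where this held for 10.2% of all genes, and for 20 in the bourgeonal pools, where it held for 10.1%. With the side titled GFP+ lower, 2 members did not overlap in the vehicle pools (8.10% of all genes) and 1 in the bourgeonal pools (9.17%). The direction of the many small differences, and the balance of higher to lower member calls, depended on scaling. The median over genes was 5.94 to 6.00 in the libraries titled GFP- and 6.28 to 6.36 in those titled GFP+, so centring takes more from the latter. With each library centred on this median, 14 members were called higher and 20 lower in the vehicle pools, and 15 higher and 19 lower in the bourgeonal pools. Quantile normalization gave 14 higher and 4 lower, and 18 higher and 4 lower. With centring, the median gate difference over all genes moved from -0.086 to -0.441 in the vehicle pools and from -0.105 to -0.455 in the bourgeonal pools. Higher calls then made up 12.7% of all calls in either treatment, in place of 61.5% and 56.7%, and 46.3% and 45.0% after quantile normalization.

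**Figure D1:**
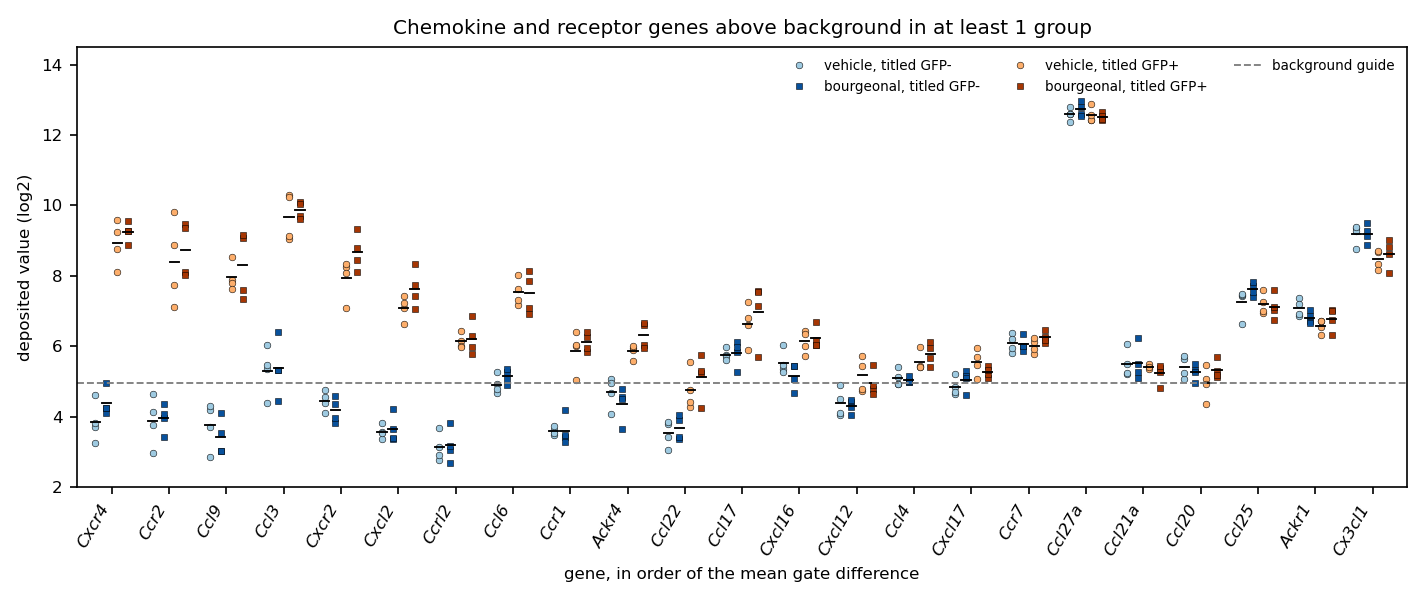
Deposited log2 value of the 23 members above background in at least 1 group, for each of the 16 libraries. Points are libraries, coloured by gate and treatment, short bars are group means (n = 4), the dashed line is the background guide of 4.97, and genes are ordered by their mean gate difference. For the genes at the left, from Cxcr4 (8.10 to 9.60 in the libraries titled GFP+) to Ccr1 (5.05 to 6.42), every library titled GFP+ lies above every library titled GFP-.

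Among the signalling receptors, Cxcr4, Ccr2 and Cxcr2 stood far above the guide on the side titled GFP+, Ccr1 stood closer to it, and all were below it on the other side. Cxcr4, the receptor for Cxcl12, measured 8.10, 9.60, 9.26 and 8.76 in the vehicle libraries titled GFP+ and 3.25, 3.72, 3.83 and 4.63 in those titled GFP-. The bourgeonal libraries read 8.89, 9.27, 9.27 and 9.57 against 4.11, 4.25, 4.25 and 4.95. The gates were separated by more than 3 log2 units at their closest under either treatment. The gate ratio was at least 15.5-fold in the vehicle pools (log2 difference 5.07 ± 0.24 SE, limma adjusted p = 1.65e-07) and at least 19.4-fold in the bourgeonal pools (4.86 ± 0.24 SE, limma adjusted p = 1.90e-07).

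Ccr2, through which Ccl2 draws monocytes, measured 7.74, 9.81, 8.88 and 7.11 in the vehicle libraries titled GFP+ and 4.14, 2.97, 4.65 and 3.78 in those titled GFP-. Its bourgeonal values were 8.11, 9.48, 9.36 and 8.03 against 3.96, 4.07, 4.35 and 3.44. On the side titled GFP+, pools 2 and 3 were the highest under both treatments, and Ccr2 had the widest spread of the receptors (SD 1.20 over the vehicle libraries). Its ratio was at least 10.7-fold in the vehicle pools (log2 difference 4.50 ± 0.47 SE, limma adjusted p = 6.40e-05) and at least 13.7-fold in the bourgeonal pools (4.79 ± 0.47 SE, limma adjusted p = 3.55e-05). The summed level of 11 monocyte and macrophage markers was also highest in pools 2 and 3 of the libraries titled GFP+, at 14.97 and 14.27 in vehicle and 14.71 and 14.79 in bourgeonal, against 13.27, 13.47, 13.58 and 14.02 in the other pools. That sum was nearly all Lyz2, a lysozyme gene that neutrophils also express. Without it, in a split made after the values were seen, the sum in pools 1 to 4 was 9.34, 10.02, 10.27 and 9.61 in vehicle and 9.69, 9.72, 10.08 and 9.93 in bourgeonal, so pools 2 and 3 were the highest in vehicle and not in bourgeonal. The part of those markers in the Ccr2 result was not tested.

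Cxcr2, the receptor of neutrophil-attracting CXC ligands, measured 7.08, 8.26, 8.33 and 8.07 in the vehicle libraries titled GFP+ and 4.56, 4.10, 4.38 and 4.75 in those titled GFP-. After bourgeonal the values were 8.10, 8.79, 9.33 and 8.45 against 3.82, 3.96, 4.59 and 4.35. Its libraries titled GFP- were all below the guide and its libraries titled GFP+ all well above it. Titled GFP+ exceeded titled GFP- by at least 7.80-fold in the vehicle pools (3.49 ± 0.25 SE, limma adjusted p = 3.05e-06) and at least 13.0-fold in the bourgeonal pools (4.49 ± 0.25 SE, limma adjusted p = 4.23e-07).

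Ccr1, a receptor for Ccl3, Ccl5, Ccl6 and Ccl9, was nearer the guide. It measured 6.01, 6.42, 5.05 and 6.03 in the vehicle libraries titled GFP+ and 5.84, 6.27, 6.40 and 5.95 in the bourgeonal ones, against 3.27 to 4.18 in the 8 libraries titled GFP-. The gates did not overlap. The ratio was at least 1.88-fold in the vehicle pools (2.28 ± 0.25 SE, limma adjusted p = 9.24e-05) and at least 2.21-fold in the bourgeonal pools (2.52 ± 0.25 SE, limma adjusted p = 3.82e-05). Ccr7, which guides dendritic cells and lymphocytes to lymph nodes, was above the guide in all 4 groups, at means of 6.02 to 6.26. Its gate difference was -0.08 (95% interval -0.47 to 0.31) in the vehicle pools and 0.20 (-0.19 to 0.59) in the bourgeonal pools, and it passed in neither.

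Of the atypical receptors, Ccrl2, which binds the attractant chemerin and presents it to other cells, measured 6.15, 6.01, 5.99 and 6.43 in the vehicle libraries titled GFP+ against 2.78, 3.14, 2.91 and 3.69. For the bourgeonal libraries the values were 5.97, 6.28, 6.85 and 5.78 against 3.82, 3.07, 3.16 and 2.69. The gates were far apart and the treatments alike in range. The gate ratio was at least 2.26-fold (3.02 ± 0.22 SE, limma adjusted p = 3.43e-06) and at least 2.38-fold (3.04 ± 0.22 SE, limma adjusted p = 2.93e-06).

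Ackr4, a scavenger of Ccl19, Ccl21 and Ccl25, had smaller differences. It measured 5.57, 5.96, 5.89 and 6.02 in the vehicle libraries titled GFP+ and 5.06, 4.08, 4.96 and 4.68 in those titled GFP-. With bourgeonal it measured 6.05, 5.95, 6.61 and 6.66 against 4.55, 4.51, 3.66 and 4.78. The gates did not overlap, and in the vehicle pools the closest libraries were 5.57 and 5.06. Titled GFP+ exceeded titled GFP- by at least 1.83-fold (1.17 ± 0.27 SE, limma adjusted p = 0.0129) and at least 2.54-fold (1.94 ± 0.27 SE, limma adjusted p = 0.000444). The vehicle call was lost without vehicle pool 2 (limma adjusted p = 0.0693) or pool 4 (0.0550) and after quantile normalization (0.0646). Ackr4 overlaps the gene Acad11 in the reference annotation, whose gate differences ran the other way (-0.42 and -0.60), and whether its probes read both was not tested. Ackr1, which binds and transports chemokines on red cells and venules, was above the guide in all 4 groups, at means of 6.58 to 7.09. Its gate difference of -0.51 in the vehicle pools (95% interval -0.86 to -0.16, limma adjusted p = 0.0512) missed the threshold with the deposited scaling and passed it as lower when libraries were median-centred or quantile normalized, and in the bourgeonal pools it was -0.04 (-0.39 to 0.31). Ackr1 overlaps Cadm3, and whether its probes read both was not tested.

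**Figure D2:**
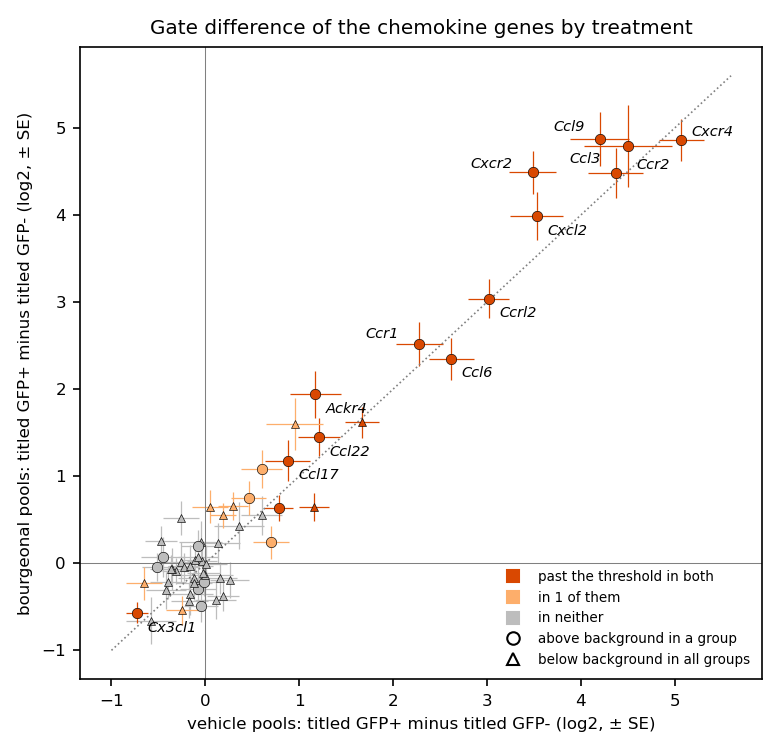
Gate difference (titled GFP+ minus titled GFP-, log2 ± SE) of the 60 members in vehicle pools (x axis) and bourgeonal pools (y axis). Each point is a gene, circles mark genes above background in a group and triangles those below it, and colour gives whether the gene passed in both treatments, 1 or neither. The genes with a difference over 2 on both axes include Ccr1 at 2.28 and 2.52 and Cxcr4 at 5.07 and 4.86, and Cx3cl1 lies below 0 on both axes at -0.73 and -0.57.

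The CXC ligands next to each other on chromosome 5 differed sharply from gene to gene. Cxcl2, a ligand of Cxcr2 that draws neutrophils, measured 7.10, 7.44, 6.64 and 7.23 in the vehicle libraries titled GFP+ against 3.81, 3.57, 3.36 and 3.54. The bourgeonal libraries read 7.74, 7.42, 8.33 and 7.06 against 3.36, 3.64, 3.39 and 4.22. Every library titled GFP+ was above the guide and every library titled GFP- below it. The ratio was at least 4.38-fold in the vehicle pools (3.53 ± 0.28 SE, limma adjusted p = 7.00e-06) and at least 6.35-fold in the bourgeonal pools (3.99 ± 0.28 SE, limma adjusted p = 2.58e-06). Its neighbours Cxcl1 and Cxcl3, also ligands of Cxcr2, were below the guide in every group, with group means of 3.73 to 4.14 and of 4.65 to 4.75, and neither passed in a gate comparison. Cxcl5 and Cxcl15 in the same run were below the guide too.

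The stretches before these genes are printed because the 3 neighbours carry the same letters while only Cxcl2 rose above background. They are the 250 bases before each start site in RefSeq (build GRCm38.p6), 5′ to 3′ on the gene's strand, with capitals marking matches on either strand to a kB-like pattern of 3 G, any 2 bases, 3 T and 2 C, a form of the site bound by NF-kB. They lie at chr5:90890995-90891244 on the plus strand for Cxcl1, chr5:90903649-90903898 on the plus strand for Cxcl2, chr5:90785851-90786100 on the plus strand for Cxcl3 and chr11:83578637-83578886 on the minus strand for Ccl9. Ccl9 is the CC ligand that was also called and fits the pattern, with other letters than the GGGAATTTCC of the CXC genes.
Cxcl1: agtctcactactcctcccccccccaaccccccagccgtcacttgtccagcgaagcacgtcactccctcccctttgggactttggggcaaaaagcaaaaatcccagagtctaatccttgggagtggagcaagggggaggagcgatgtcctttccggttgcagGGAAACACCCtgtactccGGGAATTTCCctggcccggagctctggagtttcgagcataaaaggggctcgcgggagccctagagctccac
Cxcl2: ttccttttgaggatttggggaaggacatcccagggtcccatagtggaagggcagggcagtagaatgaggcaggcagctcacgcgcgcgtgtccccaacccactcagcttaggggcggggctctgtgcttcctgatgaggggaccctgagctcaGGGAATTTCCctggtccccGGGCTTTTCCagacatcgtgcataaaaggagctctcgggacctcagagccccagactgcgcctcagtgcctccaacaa
Cxcl3: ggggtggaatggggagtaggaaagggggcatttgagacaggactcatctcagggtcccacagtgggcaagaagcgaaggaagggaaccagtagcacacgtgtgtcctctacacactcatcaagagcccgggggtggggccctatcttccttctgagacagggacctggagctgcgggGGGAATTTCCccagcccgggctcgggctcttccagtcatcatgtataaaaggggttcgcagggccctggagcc
Ccl9: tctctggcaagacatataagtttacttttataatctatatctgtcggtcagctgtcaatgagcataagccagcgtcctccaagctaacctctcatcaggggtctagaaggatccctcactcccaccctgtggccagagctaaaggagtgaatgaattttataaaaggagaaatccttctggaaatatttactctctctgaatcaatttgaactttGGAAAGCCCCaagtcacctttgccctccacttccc
The matches begin 89 and 71 bases before the start in Cxcl1, 97 and 78 in Cxcl2, 73 in Cxcl3 and 35 in Ccl9. Of the 45 members with a promoter in the table, 6 (13.3%) held the pattern, namely these 4, Ccl20 and Ccr3, and 1.65% of 27025 genes did. The shorter GGGNNTTCC, with 1 T less, stood in 9 members (20.0%), against 5.61% of genes. The other letters searched, all on both strands, were TGANTCA in 11.1% of members against 7.82% of genes, its subset TGAGTCA in 8.9% against 5.16%, GAGGAAG in 13.3% against 12.0%, its subset GAGGAAGT in 2.2% against 2.79%, and TTCNNGGAA in 2.2% against 4.74%. A match is a description of the letters, and 2 of the 6 genes that hold the first pattern, Cxcl2 and Ccl9, were called higher under both treatments. Of all 60 members 26.7% were called higher in vehicle and 35.0% in bourgeonal, and of all genes 9.95% and 10.2%. Whether the letters go with the calls was not tested.

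Other CXC ligands differed less. Cxcl16, a ligand of Cxcr6 made as a membrane protein, had group means of 5.54 in the vehicle libraries titled GFP- and 6.14 in those titled GFP+, and of 5.16 and 6.24 in the bourgeonal libraries. It passed in the bourgeonal pools (2.12-fold, 1.08 ± 0.22 SE, limma adjusted p = 0.00559) and not in the vehicle pools (0.60, limma adjusted p = 0.0942), and the difference of these was not past the threshold (0.48, 95% interval -0.21 to 1.17). Cxcl12, the ligand of Cxcr4, had means of 4.40 and 5.18 in the vehicle pools, where the ratio was at least 1.15-fold (0.78 ± 0.15 SE, limma adjusted p = 0.00388), and in the bourgeonal pools it passed (0.64 ± 0.15 SE, limma adjusted p = 0.0115) with both means below the guide (4.31 and 4.95). The bourgeonal call was lost without the pool as a block (limma adjusted p = 0.0904) and after median centring (0.111) or quantile normalization (0.0573). Cxcl17, a mucosal chemokine, passed only in the vehicle list (at least 1.43-fold, 0.70 ± 0.19 SE, limma adjusted p = 0.0282), with 0.24 in the bourgeonal pools, and a difference between treatments of -0.46 (95% interval -1.05 to 0.13). Its call was lost without vehicle pool 1, 2 or 4 (limma adjusted p = 0.119, 0.0749 and 0.0522) and after median centring (0.135) or quantile normalization (0.191).

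Among the CC ligands, the largest gate differences came from a run of neighbours on chromosome 11. Ccl3, an inflammatory ligand of Ccr1, measured 9.05, 10.29, 9.14 and 10.25 in the vehicle libraries titled GFP+ against 4.40, 6.03, 5.36 and 5.46. Its bourgeonal values were 10.09, 9.69, 10.03 and 9.63 against 5.32, 4.46, 5.32 and 6.42. The brightest library titled GFP-, at 6.42, was far below the dimmest titled GFP+, at 9.05. The group means titled GFP- exceeded the guide, though libraries at 4.40 and 4.46 did not and entered as measured. The fold, given without a bound, was 20.7-fold in the vehicle pools (4.37 ± 0.29 SE, limma adjusted p = 1.83e-06) and 22.3-fold in the bourgeonal pools (4.48 ± 0.29 SE, limma adjusted p = 1.40e-06). It is not on the same footing as the lower bounds of other genes.

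Ccl9, a ligand of Ccr1 found in rodents, measured 7.87, 8.55, 7.81 and 7.62 in the vehicle libraries titled GFP+ against 4.19, 4.30, 2.85 and 3.70. After bourgeonal the values were 7.35, 9.08, 9.17 and 7.59 against 3.54, 3.02, 4.12 and 3.03. As for Ccr2, bourgeonal pools 2 and 3 were the highest on the side titled GFP+. The gate ratio was at least 7.94-fold (4.20 ± 0.31 SE, limma adjusted p = 5.06e-06) and at least 10.0-fold (4.87 ± 0.31 SE, limma adjusted p = 1.46e-06).

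Ccl6, a close relative of Ccl9, measured 7.18, 8.02, 7.63 and 7.32 in the vehicle libraries titled GFP+ against 4.67, 5.27, 4.93 and 4.79. For the bourgeonal libraries the values were 6.93, 7.86, 8.15 and 7.10 against 5.28, 5.07, 4.90 and 5.37. The gates did not overlap, and the side titled GFP- lay at the guide. Titled GFP+ exceeded titled GFP- by at least 5.62-fold in the vehicle pools (2.62 ± 0.24 SE, limma adjusted p = 2.29e-05) and 5.11-fold, with both group means above the guide, in the bourgeonal pools (2.35 ± 0.24 SE, limma adjusted p = 4.71e-05).

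Ccl4, which lies beside Ccl3 and overlaps it in the reference annotation, had much smaller differences. Its means were 5.10 and 5.56 in the vehicle pools (0.46, limma adjusted p = 0.137) and 5.04 and 5.79 in the bourgeonal pools (1.68-fold, 0.75 ± 0.19 SE, limma adjusted p = 0.0187), and the bourgeonal call was lost without bourgeonal pool 1, 2 or 3 (limma adjusted p = 0.0770, 0.0959 and 0.0555) and after median centring (0.0732) or quantile normalization (0.135). Whether probes of either gene read the other was not tested. Ccl5, an attractant of lymphocytes and monocytes at the other end of the run, passed under both treatments (limma adjusted p = 9.62e-05 and 0.000103) with group means below the guide, at 3.07 and 4.74 and at 3.25 and 4.87, so no fold is given.

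**Figure D3:**
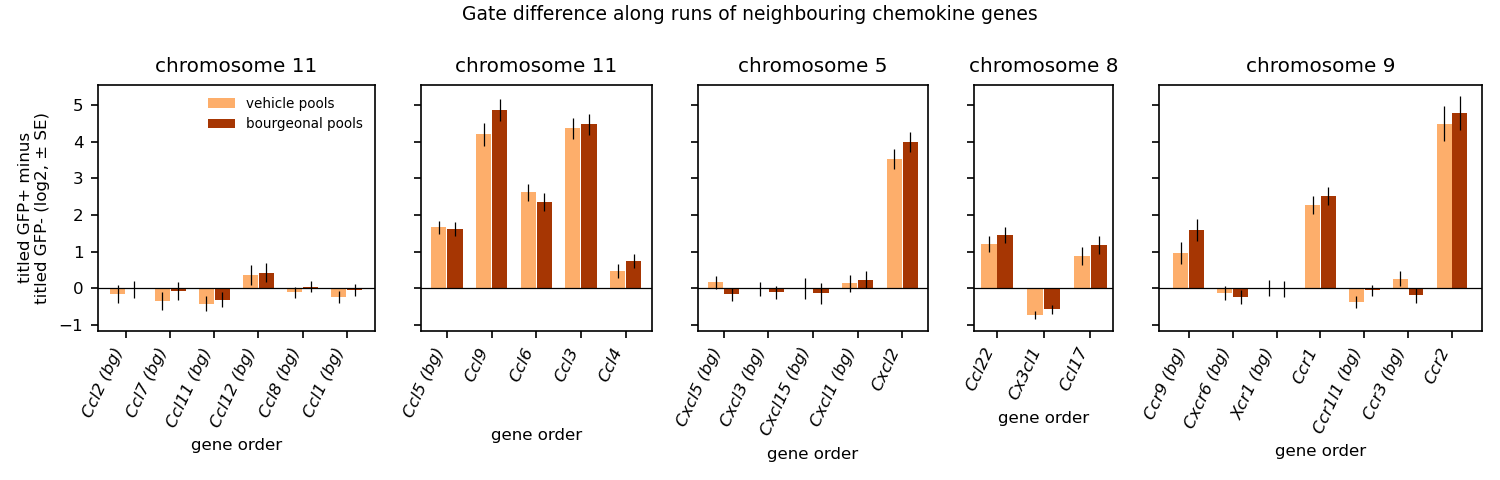
Gate difference (titled GFP+ minus titled GFP-, log2 ± SE) of members that lie next to each other on a chromosome, in gene order, with 1 bar for vehicle and 1 for bourgeonal pools; "(bg)" marks genes below background in every group. Tall and short bars can stand side by side: Cxcl2 at 3.53 stands beside Cxcl1 at 0.14 in the vehicle pools, Ccl3 at 4.37 beside Ccl4 at 0.46, and Cx3cl1 points down between Ccl22 and Ccl17.

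Along the chromosomes, runs of neighbouring members differed in how many were above the guide. In the chromosome 11 run of Ccl5, Ccl9, Ccl6, Ccl3 and Ccl4, 4 of 5 were above the guide in a group, Ccl9 only in the libraries titled GFP+. Of the 5, 4 were called higher in the vehicle pools and 5 in the bourgeonal pools, where 9.95% and 10.2% of all genes were. The other chromosome 11 run, Ccl2, Ccl7, Ccl11, Ccl12, Ccl8 and Ccl1, had 0 of 6 above the guide and none called. Ccl2 and Ccl7, ligands of Ccr2, were thus below the guide in the libraries where Ccr2 was well above it. On chromosome 9, of the run Ccr9, Cxcr6, Xcr1, Ccr1, Ccr1l1, Ccr3 and Ccr2, 2 of 7 were above the guide, Ccr1 and Ccr2, both only in the libraries titled GFP+. On chromosome 1, Cxcr2 was above the guide, only in the libraries titled GFP+, and its neighbour Cxcr1 was below it in every group.

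The chromosome 8 trio moved in opposite directions. Ccl22, a ligand of Ccr4 made by dendritic cells and macrophages, measured 4.27, 4.43, 5.55 and 4.75 in the vehicle libraries titled GFP+ against 3.79, 3.44, 3.86 and 3.07, with both means below the guide (limma adjusted p = 0.00364). With bourgeonal it measured 5.24, 5.75, 4.26 and 5.31 against 3.92, 4.04, 3.36 and 3.44, a ratio of at least 1.12-fold (1.45 ± 0.22 SE, limma adjusted p = 0.000981). Its highest library titled GFP- was 4.04, below the lowest titled GFP+ at 4.26. Ccl17, the other ligand of Ccr4, measured 5.90, 6.62, 7.25 and 6.81 against 5.76, 5.97, 5.73 and 5.61 in the vehicle pools (1.83-fold, 0.88 ± 0.24 SE, limma adjusted p = 0.0319). The bourgeonal libraries read 5.70, 7.56, 7.14 and 7.55 against 5.28, 6.13, 5.83 and 5.98 (2.27-fold, 1.18 ± 0.24 SE, limma adjusted p = 0.00604). In pool 1 of either treatment Ccl17 differed least between gates, and the vehicle call was lost without vehicle pool 2, 3 or 4 (limma adjusted p = 0.0656, 0.142 and 0.124), without the pool as a block (0.112), and after median centring (0.0798) or quantile normalization (0.172). Ccr4 itself was below the guide in all 4 groups.

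Cx3cl1, the membrane-tethered ligand known as fractalkine, was the member called lower under both treatments. It measured 8.67, 8.33, 8.17 and 8.70 in the vehicle libraries titled GFP+ against 9.36, 9.27, 8.76 and 9.39 in those titled GFP-, and 9.03, 8.62, 8.07 and 8.82 against 9.51, 9.14, 8.89 and 9.27 in the bourgeonal pools. It was lower in 8 of 8 pools; the bourgeonal groups overlapped and the vehicle groups did not. The fall was 1.66-fold (-0.73, 95% interval -0.99 to -0.46, limma adjusted p = 0.00162) and 1.48-fold (-0.57, -0.83 to -0.30, limma adjusted p = 0.00728), and without the pool as a block the bourgeonal value did not pass (limma adjusted p = 0.0802). Its receptor Cx3cr1, found on monocytes, macrophages and microglia, was below the guide in all groups yet higher in the libraries titled GFP+, at means of 3.64 and 4.81 in vehicle (limma adjusted p = 0.000383) and 3.83 and 4.48 in bourgeonal (0.0152). The bourgeonal call of Cx3cr1 was lost without bourgeonal pool 2 or 3 (limma adjusted p = 0.0707 and 0.0799) and after median centring (0.109).

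The remaining ligands above the guide had no gate call. Ccl27a, a ligand of Ccr10 best known from skin, was bright in every group, at means of 12.52 to 12.73, and its gate difference was -0.01 (95% interval -0.36 to 0.35) and -0.21 (-0.57 to 0.15). Ccl27a overlaps Il11ra1 in the reference annotation, and whether its probes read both was not tested. Ccl25, a ligand of Ccr9 known from thymus and gut, had means of 7.13 to 7.62 and differences of -0.05 (-0.44 to 0.34) and -0.49 (-0.89 to -0.10, limma adjusted p = 0.0841). Ccl21a, a ligand of Ccr7, had means of 5.23 to 5.52, with near-identical copies, Ccl21b and Ccl21c, whose signal its probes may share. Its differences were -0.08 (-0.49 to 0.34) and -0.29 (-0.71 to 0.12). Ccl20, a ligand of Ccr6 made by epithelia, had means of 4.97 to 5.42 and differences of -0.45 (-0.98 to 0.07) and 0.07 (-0.45 to 0.59). Centring libraries on the median turned Ccl20 in the vehicle pools, and Ccl25, Ccl21a and Ccl27a in the bourgeonal pools, into lower calls; quantile normalization did so for all of these but Ccl27a.

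Below the guide, single members were called but have no fold. In the bourgeonal pools these were Ccl5, Cx3cr1, Ccr9, Cxcr1, Cxcr3 and Cxcl10 as higher and Cxcl13 as lower, and in the vehicle pools Ccl5 and Cx3cr1 as higher and Ccr10 as lower. Some, such as Ccl5 with means of 4.74 and 4.87 titled GFP+, exceeded 4.64, the highest vomeronasal percentile of that gate. Of 13 alternatives, the bourgeonal call was lost in 9 for Cxcl13, 6 for Cxcr1, 5 for Cxcr3 and 2 for Cxcl10, and the vehicle call of Ccr10 in 7. Ccr9, the receptor of Ccl25 on gut-homing lymphocytes, had the largest of the differences called only in the bourgeonal list, at means of 2.89 and 4.49 (limma adjusted p = 0.00349), and 3.15 and 4.10 in vehicle (0.0564).

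Markers of other cells moved with these results. Over all genes, 9.95% were called higher and 6.23% lower in the vehicle pools, and 10.2% and 7.82% in the bourgeonal pools. These shares stand beside all list counts that follow. The neutrophil list, which includes S100a8, S100a9 and Ngp, was higher in the libraries titled GFP+ for 13 of 13 genes under both treatments. Its summed level (log2 of the summed linear signal) was 7.73 to 9.05 in the libraries titled GFP- and 17.69 to 18.85 in those titled GFP+. Counted within each treatment, 8 of 11 monocyte and macrophage genes were higher (sums of 8.04 to 9.02 against 13.27 to 14.97, the latter nearly all Lyz2). So were 4 of 8 dendritic genes (7.61 to 8.03 against 10.47 to 11.82) and 5 of 13 T and NK cell genes (8.07 to 8.38 against 8.86 to 9.64, with 8 below the guide). The genes called were not all the same: C1qc, Cd3g and Gzma passed only in vehicle, and Adgre1, Cd8a and Klrb1c only in bourgeonal. B cell genes were higher for 4 of 9 in each treatment, with Pax5 called only in vehicle and Ms4a1 only in bourgeonal. Of the 9, 6 were below the guide, and their summed level was that of Ebf1, which olfactory neurons also express (16.77 to 17.31 in all libraries). Without Ebf1 the B cell sum was 6.60 to 7.02 against 8.03 to 8.85, a split made after the values were seen. Cd79a and Cd79b, parts of the B cell receptor, rose by 3.01 and 2.10 in the vehicle pools (limma adjusted p = 2.23e-05 and 0.000237). Mast cell and basophil genes were higher for 4 of 7 in the vehicle pools and 3 in the bourgeonal pools (6.35 to 6.70 against 8.51 to 9.05, with 5 below the guide). The sum titled GFP+ was mostly Kit (means of 8.15 and 8.18), and Fcer1a, Mcpt4 and Tpsb2 passed in neither treatment. Erythroid genes were higher for 2 of 3 (7.68 to 8.21 against 9.51 to 10.80). These lists move together with the receptors and ligands above, and their part in the results was not tested.

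Epithelial markers moved as well. Microvillar genes were higher for 9 of 9 (sums of 10.26 to 10.89 against 13.79 to 14.43), sustentacular genes for 6 of 9 (12.18 to 14.44 against 14.56 to 15.34), progenitor and basal genes for 4 of 7 (7.34 to 7.77 against 9.54 to 10.61) and immature neuron genes for 8 of 11 (17.14 to 17.35 against 17.92 to 18.14), with the same count in each treatment. Of the sustentacular genes, Gstm2 passed only in vehicle and Ermn only in bourgeonal. Of the progenitor and basal list, Neurog1, Mki67, Top2a and Sox2 passed, and the basal cell genes Krt5, Krt14 and Trp63 passed in neither treatment. In that list 4 of 7 genes were below the guide, and the sum titled GFP+ was mostly Mki67 (means of 9.59 and 9.80). Mature neuron genes were higher for 0 and lower for 2 of 15, with sums of 21.23 to 21.44 in all libraries. Endothelial genes were below the guide for 8 of 9, with sums of 6.78 to 7.11, and 0 passed in vehicle and 2 in bourgeonal. Stromal genes passed for 1 of 6 under both treatments (7.19 to 8.74) and ensheathing glia genes for 0 of 6 in vehicle and 1 in bourgeonal (8.07 to 9.60). The part of these cells in the chemokine results was not tested either.

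Many genes that work with the chemokine receptors were also called higher in the libraries titled GFP+, where 9.95% of all genes were in vehicle and 10.2% in bourgeonal. The 18 signalling receptors as a class had medians of only 0.15 and 0.22, with 5 called higher in vehicle and 8 in bourgeonal. Other chemoattractant receptors were higher in the libraries titled GFP+ for 6 of 10 under both treatments, with medians of 1.17 and 1.26, among them Ptafr, the receptor of platelet activating factor (2.16 ± 0.26 SE in vehicle, limma adjusted p = 0.000166). Of the signalling genes 18 of 35 were higher and 1 lower in vehicle, and 20 and 1 in bourgeonal, with medians of 0.61 and 0.63. Gnai2, the G protein subunit through which chemokine receptors signal in leukocytes, went from 6.36 to 12.03 in vehicle (5.67 ± 0.29 SE, limma adjusted p = 3.48e-07). Plcb3, a phospholipase, fell by 0.59 on the log2 scale (limma adjusted p = 0.0073). Desensitisation genes were higher for 9 of 13 in vehicle and 10 in bourgeonal, with medians of 1.06 and 0.94, led by the regulators of G protein signalling Rgs2 and Rgs13 (4.05 ± 0.24 SE for Rgs13 in vehicle, limma adjusted p = 1.02e-06). Adhesion genes, which leukocytes use to leave vessels, were higher for 8 of 14 and 9 of 14, with medians of 0.86 and 0.99, led by the integrin chains Itgam and Itgb2. Many of these are general leukocyte genes, so their counts are not separate evidence from those of the marker lists.

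Genes upstream of chemokine expression were more mixed. NF-kB pathway and feedback genes were higher for 8 of 18 in vehicle and 9 in bourgeonal and lower for 0, with medians of 0.22 and 0.55. Zfp36, which shortens the life of cytokine messages, went from 6.14 to 11.23 in vehicle (5.09 ± 0.23 SE, limma adjusted p = 1.19e-07), and Tnfaip3, a brake on NF-kB, from 6.60 to 8.97 (2.38 ± 0.20 SE, limma adjusted p = 1.22e-05). Cytokines that induce chemokines were higher for 5 of 19 in vehicle and 6 in bourgeonal, with 11 below the guide in all groups and medians of -0.03 and -0.11. Lower calls numbered 0 in vehicle and 1 in bourgeonal, Il18 (-0.67 ± 0.19 SE, limma adjusted p = 0.0304). Il1b (limma adjusted p = 1.93e-07) and Tnf (1.93e-06) were the largest rises in vehicle. Cytokine receptors were higher for 13 of 18 and 12 of 18, with medians of 1.11 and 1.21, with Csf3r and Csf2ra, receptor chains for granulocyte growth factors, the largest rises in vehicle. Chemokine family genes under other symbols, such as Pf4 and Ppbp, were higher for 0 of 7 under both treatments, lower for 1 in vehicle (Ppbp, below the guide), and 6 of 7 were below the guide.

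No member was called in a comparison of bourgeonal with vehicle. In the libraries titled GFP+ 0 of 60 members were higher or lower (limma, Benjamini-Hochberg over all genes), where 0.0% of all genes were called higher and 0.0103% lower, and 3 members had an unadjusted p under 0.05 (5.0%, against 4.24% of all genes). In the libraries titled GFP- 0 members were called, where 0.0% of all genes were called in either direction, and 1 member had an unadjusted p under 0.05 (1.67%, against 4.46%). When the gate difference itself was compared between treatments, 0 members were called, where 0.0% of all genes were called in either direction, and 6 had an unadjusted p under 0.05 (10.0%, against 5.69%). The smallest adjusted p of a member was 0.999, 0.996 and 0.823 in these comparisons. The 3 odor comparisons share libraries and are not separate evidence.

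Cxcr2 came nearest among the members above the guide. In the libraries titled GFP+ its mean was 7.93 ± 0.58 (SD, n = 4) in vehicle and 8.67 ± 0.52 (SD, n = 4) in bourgeonal, a difference of 0.74 (95% interval 0.05 to 1.42, limma adjusted p = 0.999). The groups overlapped, from 8.10 in the lowest bourgeonal library to 8.33 in the highest vehicle library. The gate difference was larger in the bourgeonal pools by 1.00 (95% interval 0.23 to 1.77, limma adjusted p = 0.823). Vehicle pool 1 held both the lowest Cxcr2 (7.08) and the lowest neutrophil marker sum (17.69) of the libraries titled GFP+, and the part of that in the difference was not tested. Ackr4 differed by 0.45 in the libraries titled GFP+ (95% interval 0.02 to 0.89, limma adjusted p = 0.999) and Cxcr3, a receptor below the guide, by 0.45 (limma adjusted p = 0.999). Cxcl17 was the member above the guide nearest to a fall there, at -0.26 (95% interval -0.69 to 0.16, limma adjusted p = 0.999).

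In the libraries titled GFP-, where Cxcr4 was below the guide, the bourgeonal mean exceeded the vehicle mean by 0.53 (95% interval -0.09 to 1.16, limma adjusted p = 0.996). Cxcl16 was lower by a similar margin there, at -0.38 (-0.88 to 0.12, limma adjusted p = 0.996). Neither difference excludes 0. For the bright member Ccl27a the difference was 0.14 (-0.21 to 0.49) in the libraries titled GFP- and -0.07 (-0.40 to 0.27) in those titled GFP+. For Ccr2, the most variable member, the interval in the libraries titled GFP+ ran from -0.81 to 1.53, so a change of that size was not detectable with 4 pools a group. The bourgeonal and vehicle libraries overlapped for all 60 members in both gates, where 1.11% of all genes were higher and 1.24% lower without overlap in the libraries titled GFP+, and 1.56% and 1.25% in those titled GFP-. Cxcl14 was the member whose gate difference was higher in every bourgeonal pool than in any vehicle pool (0.73, 95% interval 0.19 to 1.27, limma adjusted p = 0.823), which held for 1.60% of all genes. The reverse held for Ccr4 (-0.57, limma adjusted p = 0.859), and for 1.89% of all genes. Both were below the guide in all groups.

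**Figure D4:**
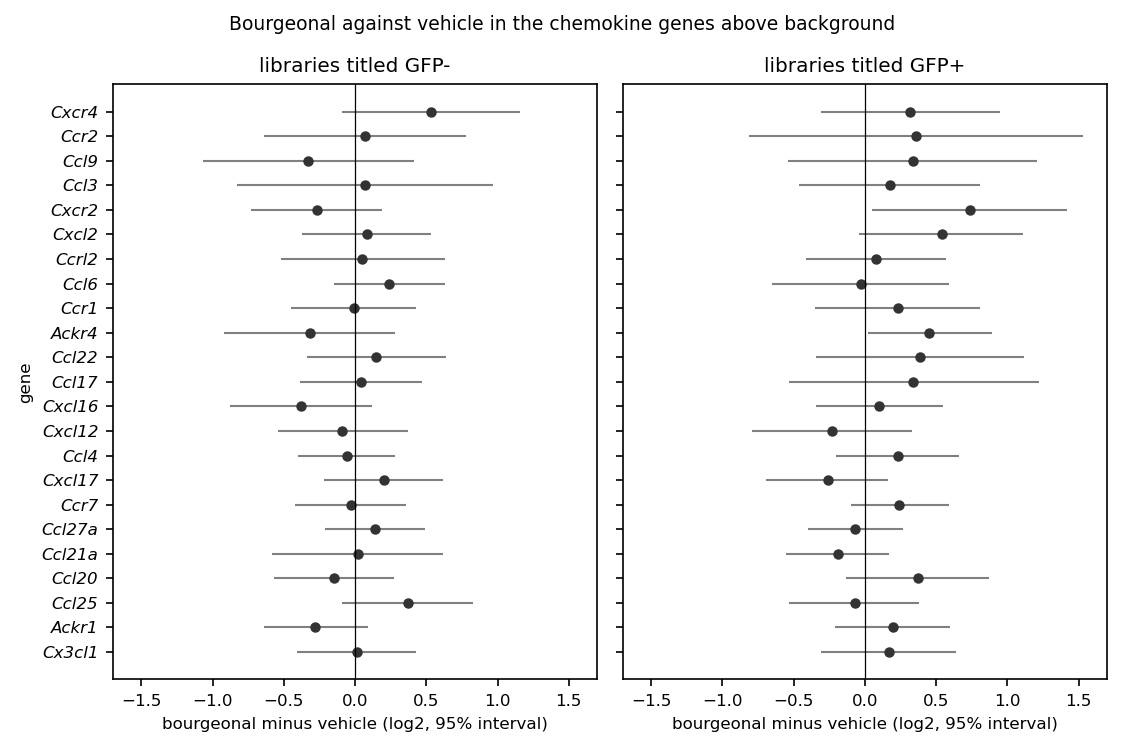
Bourgeonal minus vehicle difference (log2, bars are 95% intervals from limma, n = 4 pools a group) of the members above background, in libraries titled GFP- on the left and titled GFP+ on the right. The intervals of Cxcr2 (0.05 to 1.42) and Ackr4 (0.02 to 0.89) in the libraries titled GFP+ lie just above 0, both with an adjusted p of 0.999, and all other intervals drawn cross 0.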

How the data were processed

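RNA (50 to 100 ng a library) was hybridised to Clariom S arrays. The authors deposited log2 values per probe set, and the submitters' processing notes name Affymetrix Expression Console as the tool. Its version, how probes were summarised and which genome build was used were "not given in the sources used here". Hybridisation spike-ins averaged 8.60 (bioB), 10.44 (bioC), 11.64 (bioD) and 13.31 (cre), and library medians over all probe sets were 5.40 to 5.65. Median centring used the medians over genes instead. The number of arrays limits the precision, and ratios are compressed where signal is near background.

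Of 28846 probe sets, 94 spike-in or background controls were left out, as were 6546 whose ID marks a negative or positive control. Of the rest, the platform annotation gave 1 gene for 19572, several for 0 and no gene for 2634. The probe set with the highest mean was kept for each of 19505 genes, which set 67 aside. All 60 members' Entrez IDs matched the RefSeq table of genes, the source of the neighbours (GRCm38.p6). RefSeq promoters were matched by symbol for 45 members.

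Gate differences and their odor minus vehicle difference came from 1 model over 16 libraries, with a fixed block for each pool, in limma 3.58.1 (lmFit, eBayes) under R 4.3.3. Within a gate, the 4 odor libraries were compared with the 4 vehicle libraries, with no block. Two-sided p-values were adjusted by Benjamini-Hochberg over all genes, with a threshold of 0.05, and the fit was tested on simulated data. Deviations from group means correlated between the gates of a pool at 0.135 to 0.287 (bourgeonal) and 0.098 to 0.201 (vehicle). Between treatments, same-numbered libraries correlated at 0.157 to 0.210 when titled GFP+ and at 0.088 to 0.161 when titled GFP-, and the replicate number as a block called 0 members in either.

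Members above the guide were named, with every library's value for the 10 largest gate differences that passed and for the smallest p in the odor comparisons. Up to 5 members below the guide were to be named where they passed, and the others were named after their values were seen, as were Ackr1, Ccl17, Cx3cl1 and the neighbours. Of each pathway list, the genes with the largest changes were named. The members and lists were chosen with earlier results of these data known. Alternatives were no pool block, a block on replicate number, median centring, quantile normalization, dim genes left out, the mean of probe sets, a trended robust variance and each pool left out.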

Additional observations from a re-analysis of the deposited data

Results flagged for a closer look

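In 4 of 92 groups of 4 libraries, the highest or lowest library stood apart from the others by a gap that exceeded 0.829 of the group's range (Dixon's 95% critical value), where chance gives about 5%. Ccl25 was 6.63 in vehicle pool 3 titled GFP-, the lowest of its group. Ccl4 was 5.97 in vehicle pool 2 titled GFP+, the highest of its group, and 5.16 in bourgeonal pool 4 titled GFP-, also the highest. Cxcr4 was 4.95 in bourgeonal pool 4 titled GFP-, the highest of its group and just under the background guide.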

How the results depend on the processing

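Higher calls of members numbered 13 to 17 in the vehicle pools and 15 to 21 in the bourgeonal pools over all alternatives, and the odor comparisons called 0 members under each of them. Lower calls in the vehicle pools numbered 20 after median centring and 4 after quantile normalization. In the bourgeonal pools they numbered 19 after centring, 4 after quantile normalization, 1 with dim genes left out, 1 with the trended robust variance and 0 with no replicate block. Leaving out each pool gave 1 to 2 lower calls in vehicle and 1 to 3 in bourgeonal. Of members called, 14 of 18 in the vehicle pools and 15 of 23 in the bourgeonal pools passed under every alternative that tested them, and 0 changed sign. Without the pool as a block, Ccl17 in the vehicle pools and Cx3cl1, Cxcl12 and Cxcl13 in the bourgeonal pools no longer passed. The block on replicate number across treatments changed no call. The S100a5 gate difference was -1.38 after centring and -1.08 to -0.96 with each pool left out. The cause of these changes, and of the difference in gene medians between gates, was not tested. Signal near background limits the ratios, and 37 of the 60 members lay below the guide in every group.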
